A study of Mus musculus with 28 samples.

Results

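Cadherins and protocadherins were followed through mouse neural stem cell lines and their controls. All row names of the count table that were either Cdh with a number or began with Pcdh were taken, which gave 92 of 28244 genes. They comprised 23 numbered cadherins, 12 protocadherins that lie singly in the genome, and 13 α, 22 β and 22 γ genes of the protocadherin clusters on chromosome 18. After the filter on low counts, 81 of the 92 were tested in at least 1 comparison. *Cdh7*, *Cdh9*, *Cdh12*, *Cdh17*, *Pcdha1*, *Pcdha4*, *Pcdha6*, *Pcdha7*, *Pcdha8* and *Pcdhb1* were tested in none, and *Pcdhga10* had no count in any sample.

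The series compared cultured peripheral neural stem cells (pNSCs), which were derived from mouse lung, tail and dorsal root ganglia (DRG), with neural stem cells (NSCs) from brain, with neural crest stem cells (NCSCs) from DRG and with lung and tail cells. Poly(A) RNA of 28 samples in 11 groups was sequenced. The first experiment held Brain-NSC, Tail-pNSC, Lung-pNSC, tail cells and lung cells (n = 2 each). The titles name no reporter, and by its groups and numbers it is the *Nes*-GFP experiment of the study, in which GFP+ cells were sorted before culture. The Wnt1Cre-mTmG experiment held brain NSCs with DRG NCSCs and with pNSCs of tail and of DRG (n = 3 each), and the Sox2-GFP experiment held brain NSCs and lung pNSCs (n = 3 each). The 2 lung cell samples also served as the Sox2-GFP control.

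All samples are labelled strain C57BL/6, and the study's methods describe crosses of the reporter mice to stock of CD1 or mixed CD1 and C3H background. Adult donors were around 4 to 6 weeks old and postnatal donors around day 1 to 5. Per the study, Lung-pNSC and the NCSCs were adult, and the tail, DRG and Sox2-GFP lung lines were postnatal. No sample title carries an age. In Wnt1Cre-mTmG mice, Wnt1-Cre turns a red membrane reporter to green in neural crest progeny and in part of the midbrain, and the pNSC lines taken from these mice were red. The NCSCs came from wild-type mice. Each pNSC line was grown from a hand-picked colony in medium with EGF and bFGF, so that a line may be 1 clone and its libraries need not stand for separate derivations. P-values therefore measure only the spread between these samples, which may be technical. For the brain control NSCs the methods describe plating and passaging of whole brain tissue, with no picking of colonies. Clonal brain lines were made for differentiation, and whether these were sequenced is not stated. Organ and way of derivation can thus not be told apart where pNSCs are compared with brain NSCs.

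Cadherins are calcium-dependent adhesion proteins of the cell surface. Type I members such as *Cdh1* (E-cadherin, epithelia) and *Cdh2* (N-cadherin, neural tissue) join cells of the same kind through catenins, and *Cdh5* (VE-cadherin) does so in endothelium. The protocadherins are a larger family of mostly neural expression. In the α, β and γ clusters each gene has its own promoter, and single neurons use a few of them at a time, which gives each cell a surface identity. The α and γ genes are spliced to constant exons shared within their cluster, and the C-type genes at the cluster ends are used more broadly.

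Promoter windows of 300 bases (250 before and 50 after the annotated start; RefSeq, GRCm38.p6) were found for 22 of the members, and 4 are shown because these genes span the range of levels described below. *Cdh20* and *Pcdh10* were abundant in every NSC and pNSC line, *Pcdh20* was highest in NCSCs, and *Cdh18* did not exceed a group mean of 1.45 cpm (read counts scaled to the size of the library). Capitals mark CpG dinucleotides, and each sequence runs 5′ to 3′ on the strand of the gene. The *Cdh20* window (chr1:104768270-104768569, plus strand) held 18 CpG, that of *Pcdh10* (chr3:45378148-45378447, plus strand) 24, that of *Pcdh20* (chr14:88471347-88471646, minus strand) 4 and that of *Cdh18* (chr15:23036213-23036512, plus strand) 12.
Cdh20: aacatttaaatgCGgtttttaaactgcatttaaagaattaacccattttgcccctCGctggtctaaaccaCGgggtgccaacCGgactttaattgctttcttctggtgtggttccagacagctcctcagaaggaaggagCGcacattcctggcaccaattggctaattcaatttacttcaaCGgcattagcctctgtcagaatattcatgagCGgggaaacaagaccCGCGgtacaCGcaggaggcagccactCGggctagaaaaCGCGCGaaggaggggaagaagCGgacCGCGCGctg
Pcdh10: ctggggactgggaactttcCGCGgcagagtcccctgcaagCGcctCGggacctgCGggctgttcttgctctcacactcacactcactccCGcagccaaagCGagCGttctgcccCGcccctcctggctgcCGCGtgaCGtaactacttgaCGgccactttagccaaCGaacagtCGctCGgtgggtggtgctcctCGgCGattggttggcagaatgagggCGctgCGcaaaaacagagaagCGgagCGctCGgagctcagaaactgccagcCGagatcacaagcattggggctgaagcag
Pcdh20: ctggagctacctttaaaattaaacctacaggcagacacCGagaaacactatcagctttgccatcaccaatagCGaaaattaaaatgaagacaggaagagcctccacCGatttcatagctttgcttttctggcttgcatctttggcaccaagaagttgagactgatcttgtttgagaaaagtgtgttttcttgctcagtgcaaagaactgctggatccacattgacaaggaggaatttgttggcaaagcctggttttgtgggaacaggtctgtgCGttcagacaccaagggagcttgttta
Cdh18: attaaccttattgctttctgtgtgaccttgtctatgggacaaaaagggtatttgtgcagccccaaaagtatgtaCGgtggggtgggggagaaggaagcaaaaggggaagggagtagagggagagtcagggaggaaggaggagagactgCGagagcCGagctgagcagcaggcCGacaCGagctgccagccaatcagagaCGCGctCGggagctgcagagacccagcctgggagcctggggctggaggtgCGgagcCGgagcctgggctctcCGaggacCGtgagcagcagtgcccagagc
As many CpG or more were present in 29.7% of all windows for *Cdh20*, 20% for *Pcdh10*, 68.6% for *Pcdh20* and 39.6% for *Cdh18*. For members with several windows, the one with the most CpG was taken. Over the 22 members, the windows of the 14 that reached 10 cpm in some group held a median of 18.0 CpG (range 2 to 38), and those of the other 8 a median of 8.5 (range 4 to 21). The median of all 32851 windows was 7. *Cdh10*, with 2 CpG, reached a group mean of 62.8 cpm, and whether the number of CpG goes with the level was not tested. Some windows belong to starts inside the gene. That of *Cdh10* begins at chr15:18820079 and the gene at chr15:18818947 (GENCODE M21). For *Cdh18* the gene begins at chr15:22549022, far before the window shown.

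Libraries held 9808246 to 22637031 counts in genes. The Wnt1Cre-mTmG brain and DRG lines were the shallowest, and 3 counts, taken as the floor of detection, corresponded to 0.131 to 0.294 cpm. The summed level of the 6 NSC markers (*Sox2*, *Olig2*, *Pax6*, *Nes*, *Sox1*, *Fabp7*) was 4316 to 6361 cpm in every NSC and pNSC library and 1454 to 1841 cpm in NCSCs, where 4 of the 6 reached 1 cpm. Markers of crest and Schwann cells summed to 4291 to 4395 cpm in NCSCs and to at most 73.4 cpm in the NSC and pNSC libraries. NCSC replicate 3 stood apart from its group: over genes, its counts differed from those of replicates 1 and 2 by a chi-square of 19.3 and 24.2 per degree of freedom, against 2.36 between those 2 replicates and 1.10 to 3.01 in all other groups. Results against NCSCs are given with it and, where this matters, without it.

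The classical cadherins formed a shared profile in the NSC and pNSC lines. Levels are given as cpm after TMM scaling over all samples. *Cdh2* (N-cadherin; chr18:16588877-16809246, minus strand, GENCODE M21) was at 248 and 244 cpm in Brain-NSC, 348 and 364 cpm in Tail-pNSC and 240 and 238 cpm in Lung-pNSC. In the Wnt1Cre-mTmG lines it was at 314, 312 and 313 cpm in brain NSCs, 321, 328 and 320 cpm in tail pNSCs and 331, 329 and 330 cpm in DRG pNSCs. The tail cells (17.7 and 21.2 cpm) and lung cells (15.3 and 15.3 cpm) lay far below, without overlap. *Cdh4* (R-cadherin, prominent in retina and forebrain; chr2:179442431-179899373, plus strand) was at 390 and 394 cpm in Brain-NSC, 378 and 381 cpm in Tail-pNSC and 408 and 406 cpm in Lung-pNSC. It was at 12.5 and 15.2 cpm in tail cells and 10.6 and 9.64 cpm in lung cells. *Cdh20*, a type II cadherin (chr1:104768529-104995481, plus strand), was at 210 and 206 cpm in Brain-NSC, 127 and 134 cpm in Tail-pNSC and 231 and 235 cpm in Lung-pNSC, and at 0.893 and 0.255 cpm in tail cells.

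**Figure D1:**
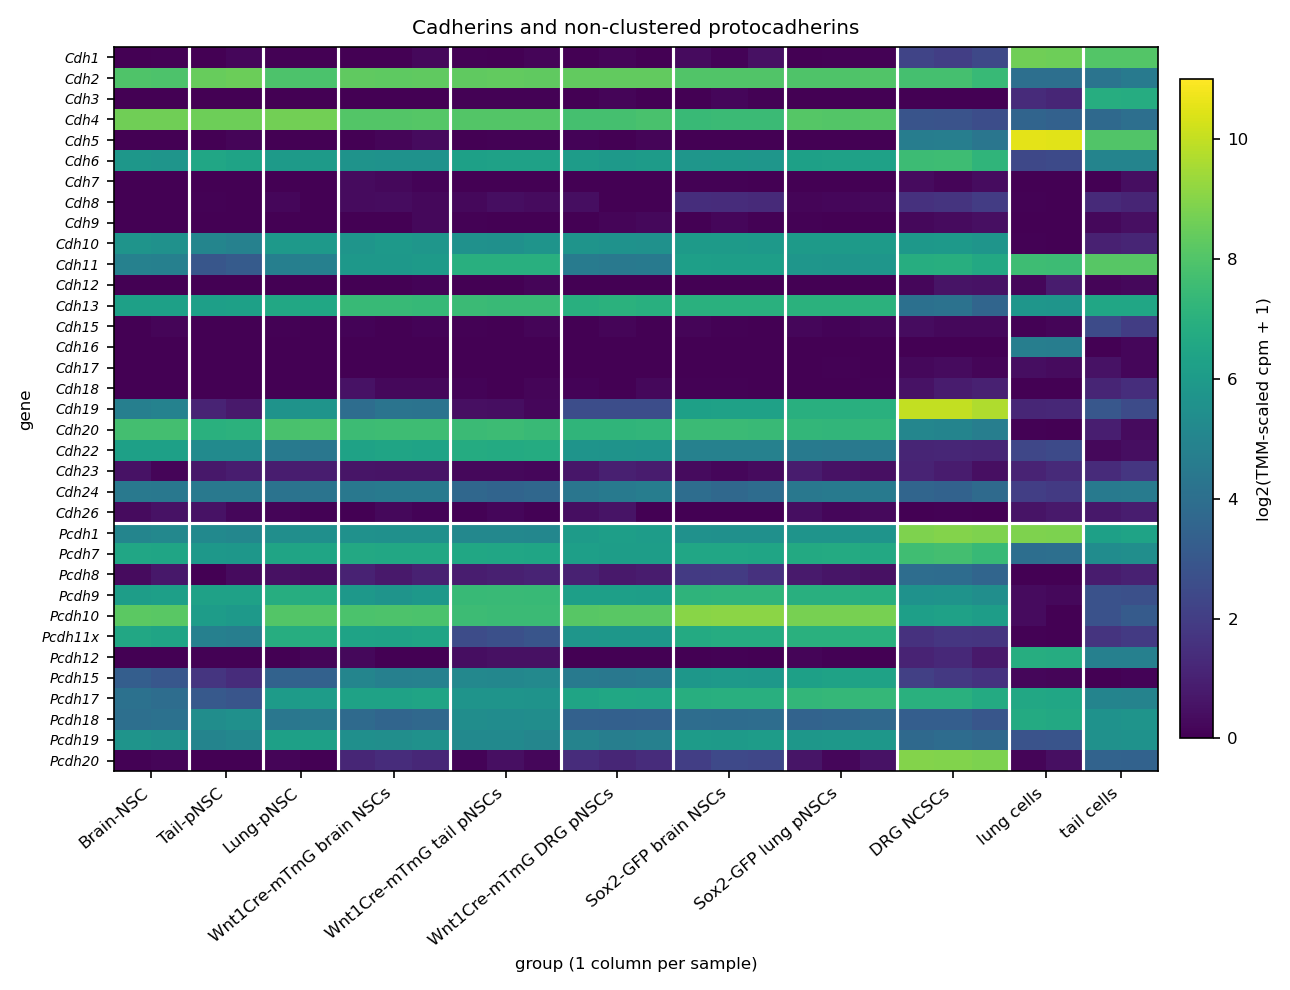
Levels of the 23 numbered cadherins and the 12 protocadherins outside the clusters in each of the 28 samples (columns, grouped), as log2 of TMM-scaled cpm plus 1. *Cdh2*, *Cdh4* and *Cdh20* are bright in all NSC and pNSC columns, *Cdh1* and *Cdh5* in the lung and tail cell columns, and *Cdh19* and *Pcdh20* in the NCSC columns.

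Against tail cells, Tail-pNSC showed 29 members higher and 23 lower of 78 tested. These were 37.2% and 29.5% of the members (66.7% in all), against 14.1% and 32.6% of all genes (46.7% in all). A gene was called where edgeR's quasi-likelihood test gave a Benjamini-Hochberg adjusted p under 0.05 and the fold change was at least 2. *Cdh2* rose by 4.10 ± 0.05 on the log2 scale (± SE), *Cdh4* by 4.68 ± 0.05 and *Cdh22*, a cadherin of brain, by 7.14 ± 0.21. Lung-pNSC against lung cells gave 30 members higher (38.5%, against 20.2% of all genes) and 19 lower (24.4%, against 34.9%) of 78, which was 62.8% against 55% in all, with *Cdh2* higher by 3.90 ± 0.05 and *Cdh4* by 5.26 ± 0.06. Sox2-GFP lung pNSCs, set against the same lung cells, gave 32 higher (42.7%, against 21.3% of all genes) and 20 lower (26.7%, against 34.9%) of 75, which was 69.3% against 56.3% in all, with *Cdh2* higher by 4.00 ± 0.04 and *Cdh4* by 4.68 ± 0.05. In bulk samples fewer cells of a type and less RNA per cell cannot be told apart.

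The epithelial and endothelial cadherins showed the opposite order. *Cdh1* (chr8:106603351-106670246, plus strand) was at 266 and 266 cpm in tail cells and 394 and 380 cpm in lung cells, and did not exceed 0.406 cpm in any NSC or pNSC library. With 3 counts in all in Tail-pNSC, the ratio of tail cells to Tail-pNSC was 3275 (95% counting interval 1120 to 15884). *Cdh5* (chr8:104101625-104144511, plus strand) was at 261 and 259 cpm in tail cells and 1494 and 1465 cpm in lung cells. Lung-pNSC held no *Cdh5* count, so lung cells were at least 9540-fold higher (floor of 3 counts in each library, averaged over the group). Intervals and floors cover counting error only. *Cdh3* (P-cadherin, basal epidermis) was at 113 and 110 cpm in tail cells and at least 684-fold higher there than in Tail-pNSC, and *Cdh16* (a cadherin of kidney and lung epithelium) was at 25.4 and 24.4 cpm in lung cells and at least 160-fold higher than in Lung-pNSC. Epithelial markers, 7 genes, summed to 4022 to 4089 cpm in tail cells and 10725 to 10777 cpm in lung cells and to at most 0.372 cpm in NSC and pNSC libraries. The 6 endothelial markers summed to 804 to 829 cpm and 3963 to 4025 cpm in the tail and lung cells and to 2.45 to 7.36 cpm in NSC and pNSC libraries.

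Further members were higher in the tissue cells. *Cdh11* (OB-cadherin of mesenchyme; chr8:102632095-102785642, minus strand) was at 286 and 285 cpm in tail cells against 6.66 and 7.89 cpm in Tail-pNSC and fell by 5.39 on the log2 scale (SE 0.06). It was at 188 and 183 cpm in lung cells against 26.1 and 26.6 cpm in Lung-pNSC and fell by 2.89 (SE 0.05). *Pcdh12*, an endothelial protocadherin, averaged 26.5 cpm in tail cells and 112 cpm in lung cells and did not exceed 0.419 cpm in NSC or pNSC libraries. *Pcdh1* (chr18:38185914-38212053, minus strand), which is expressed in airway epithelium as well as in neural tissue, was at 466 and 456 cpm in lung cells against 41.8 and 43.2 cpm in Lung-pNSC and fell by 3.51 (SE 0.04).

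**Figure D2:**
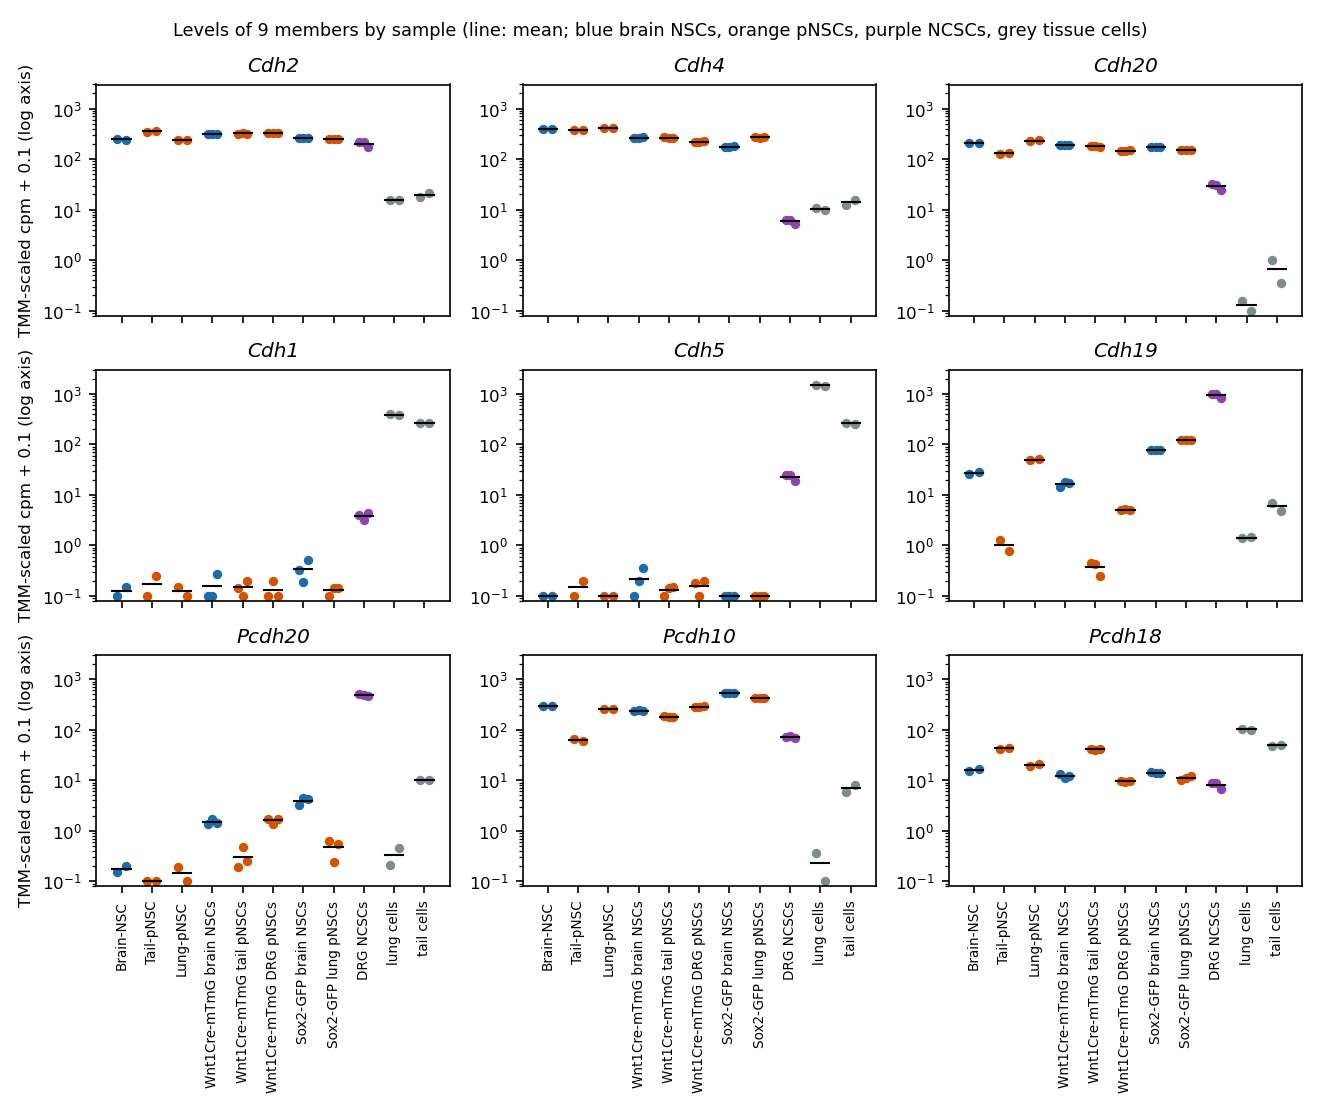
Levels of 9 members in every sample (points; line, group mean) on a log axis of TMM-scaled cpm plus 0.1, with brain NSCs in blue, pNSCs in orange, NCSCs in purple and tissue cells in grey. *Cdh2* of the pNSC lines lies at 238 to 364 cpm, beside brain NSCs at 244 to 314 cpm, and *Pcdh20* stands at 460 to 499 cpm in NCSCs.

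Level per length allows members to be ordered within a group. As cpm per kb of exon length that no other gene shares, *Pcdhgc3*, the broadly used C-type γ gene, ranked first in every NSC and pNSC group, at 277 in Brain-NSC, 104 in Tail-pNSC and 182 in Lung-pNSC. *Pcdhgc3* shares 66.9% of its exon length with other γ genes or with a gene on the opposite strand. The length left depends on counting both as shared, so that its level and its rank among close members are uncertain. *Cdh4*, *Cdh20* and *Cdh2* took the next ranks, in varying order, in all of these groups except Sox2-GFP brain NSCs, where *Pcdh10* (34.0) stood between *Cdh20* (43.9) and *Cdh2* (32.1). In NCSCs *Cdh19* led at 222 cpm per kb, before *Pcdhgc3* at 88.9, *Pcdh20* at 87.9 and *Pcdh1* at 54.1. In lung cells *Cdh5* led at 352 and in tail cells at 61.9, followed there by *Cdh1* at 58.2.

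Next, pNSCs were compared with brain NSCs. Tail-pNSC against Brain-NSC gave 31 members called of 78 tested (39.7%, against 10.9% of all genes), with 10 higher (12.8% against 4.31%), 21 lower (26.9% against 6.59%) and 4 of 19 numbered cadherins (21.1%) among them. Lung-pNSC against Brain-NSC gave 27 called (34.6%, against 8.71% of all genes), with 16 higher (20.5% against 4.56%), 11 lower (14.1% against 4.15%) and 2 of 19 numbered cadherins (10.5%) among them. Wnt1Cre-mTmG tail pNSCs against brain NSCs gave 21 of 73 (28.8%, against 18.2%), with 6 higher (8.22% against 9.16%), 15 lower (20.5% against 9.05%) and 3 of 14 numbered cadherins (21.4%). Wnt1Cre-mTmG DRG pNSCs against the same brain NSCs gave 31 of 73 (42.5%, against 9.53%), with 3 higher (4.11% against 3.12%), 28 lower (38.4% against 6.41%) and 2 of 14 numbered cadherins (14.3%). Sox2-GFP lung pNSCs against brain NSCs gave 26 of 75 (34.7%, against 15.7%), with 3 higher (4% against 5.76%), 23 lower (30.7% against 9.99%) and 4 of 16 numbered cadherins (25%). Those 4, *Cdh1*, *Cdh3*, *Cdh8* and *Cdh23*, had group means of at most 1.58 cpm in these lines. In these 5 comparisons *Cdh2*, *Cdh4*, *Cdh6*, *Cdh10*, *Cdh13*, *Cdh20* and *Cdh24* were never called, and neither were *Pcdh1*, *Pcdh7* and *Pcdh19*. They were among 20 of 79 members tested that were called in none. *Cdh5*, *Cdh15*, *Cdh16* and *Cdh18* were also among the 20. These were near 0 in the pNSC and brain lines and passed the filter through other groups, so that a call was hardly possible.

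Several of these members are known from the developing nervous system. *Cdh6*, a type II cadherin of the early nervous system, averaged 54.1 cpm in Brain-NSC, 85.8 cpm in Tail-pNSC and 63.1 cpm in Lung-pNSC. *Cdh13* (T-cadherin, which is anchored by lipid and lacks a cytoplasmic tail) averaged 168 cpm in Wnt1Cre-mTmG brain NSCs, 177 cpm in tail pNSCs and 124 cpm in DRG pNSCs, and 14.5 cpm in NCSCs. *Cdh10* averaged 48.4 cpm in Brain-NSC, 29.3 cpm in Tail-pNSC and 59.1 cpm in Lung-pNSC. *Cdh24* averaged between 11.4 and 21.9 cpm in all 8 NSC and pNSC groups.

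*Cdh19* (chr1:110888326-110977584, minus strand), a cadherin of Schwann cell precursors, was the numbered cadherin that fell in both tail lines. It was at 25.9 and 28.8 cpm in Brain-NSC against 1.16 and 0.662 cpm in Tail-pNSC, and fell by 4.95 on the log2 scale (SE 0.17, adjusted p = 3.39e-179). In Wnt1Cre-mTmG lines it was at 14.3, 17.8 and 17 cpm in brain NSCs, 0.354, 0.326 and 0.152 cpm in tail pNSCs and 4.99, 5.1 and 4.98 cpm in DRG pNSCs. The tail lines there fell by 5.83 (SE 0.24, adjusted p = 6.41e-13) and the DRG lines by 1.70 (SE 0.16). The lung lines were on the other side of their brain controls, at 49.9 and 50.4 cpm in Lung-pNSC and 123, 123 and 125 cpm in Sox2-GFP lung pNSCs against 75.9, 78.2 and 77.7 cpm in Sox2-GFP brain NSCs, with no call in either. In NCSCs *Cdh19* was at 1012, 1016 and 820.2 cpm.

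*Cdh11* moved in opposite directions in the 2 tail lines. It fell by 1.91 in Tail-pNSC (SE 0.09, adjusted p = 8.27e-96), from 27.6 and 26.4 cpm to 6.66 and 7.89 cpm. It rose by 1.02 ± 0.06 in Wnt1Cre-mTmG tail pNSCs (adjusted p = 1.75e-10), from 57, 57.2 and 62.4 cpm in brain NSCs to 120, 120 and 123 cpm. That last call was lost under upper-quartile scaling, where the log2 fold change was 0.999. Fibroblast markers, all 6 of which reached 1 cpm there, summed to 384 to 397 cpm in the Wnt1Cre-mTmG tail pNSCs against 10.6 to 12.7 cpm in their brain NSCs, and their part in the *Cdh11* result was not tested. *Cdh22* (chr2:165111507-165234853, minus strand) fell by 1.06 in Tail-pNSC (SE 0.07; 76.1 and 76.2 against 37 and 37.3 cpm) and by 1.89 in Lung-pNSC (SE 0.07; 22.4 and 19.3 cpm). In the Wnt1Cre-mTmG tail pNSCs it was at 107, 106 and 109 cpm against 80.6, 86.1 and 81.4 cpm, which was not called.

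Among the single protocadherins, *Pcdh18* (chr3:49743296-49757325, minus strand), a δ protocadherin, was at 15.1 and 16.3 cpm in Brain-NSC and 41.4 and 44.4 cpm in Tail-pNSC, and rose by 1.42 ± 0.08 (adjusted p = 6.12e-70). In the Wnt1Cre-mTmG lines it was at 12.9, 11.2 and 12.3 cpm in brain NSCs and 41.6, 40.3 and 41.6 cpm in tail pNSCs, and rose by 1.74 ± 0.08 (adjusted p = 5.78e-12). The tail pNSC samples did not overlap brain NSC samples in either experiment. Tail cells held *Pcdh18* at 47.5 and 50.1 cpm. Fibroblast markers were at 2.14 to 2.90 cpm in Tail-pNSC against 0.401 to 0.484 cpm in Brain-NSC. In the Wnt1Cre-mTmG lines they were at 384 to 397 cpm in tail pNSCs against 10.6 to 12.7 cpm in brain NSCs. The part of fibroblast-like cells in the *Pcdh18* result was not tested. Of the 72 members tested in both tail comparisons, *Pcdh18* was the 1 called higher in both, out of 9 called higher in the first experiment (11.1%) and 5 in the Wnt1Cre-mTmG experiment (20%). Of all 14237 genes tested in both, 281 were called higher in both, out of 655 (42.9%) and 1282 (21.9%).

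*Pcdh11x* (chrX:120290259-120910619, plus strand) fell in both tail lines. It was at 94.5 and 84.6 cpm in Brain-NSC and 26.7 and 24.8 cpm in Tail-pNSC, a fall by 1.82 (SE 0.07). In Wnt1Cre-mTmG brain NSCs it was at 81.1, 79.9 and 84.4 cpm and in tail pNSCs at 4.87, 5.45 and 6.55 cpm, a fall by 3.89 (SE 0.08, adjusted p = 5.97e-17). The gene is X-linked, and *Xist*, the RNA of the inactive X chromosome, was at 0 to 0.193 cpm in Wnt1Cre-mTmG brain NSCs and 1108 to 1207 cpm in tail pNSCs. In Brain-NSC and Tail-pNSC it was at 1785 to 1941 cpm and 1521 to 1611 cpm. Its part in the result was not tested. *Pcdh10* (chr3:45378398-45435623, plus strand), whose promoter is printed above, fell by 2.26 in Tail-pNSC (SE 0.04), from 299.7 and 289.6 cpm to 65.7 and 59.6 cpm. In the Wnt1Cre-mTmG tail pNSCs it was at 183, 181 and 181 cpm against 237, 241 and 238 cpm, which was not called. *Pcdh17* rose by 2.07 ± 0.08 in Lung-pNSC (16.4 and 14.5 against 64.7 and 66.9 cpm, adjusted p = 1.56e-162) and was at 119, 122 and 122 against 153, 157 and 157 cpm in the Sox2-GFP lines, which was not called. Against the same Brain-NSC, *Pcdh17* was called lower in Tail-pNSC, where it averaged 6.83 cpm. *Pcdh9* rose by 1.62 ± 0.05 in Wnt1Cre-mTmG tail pNSCs, where it averaged 172 cpm against 55.1 cpm. *Pcdh15*, a component of hair cell tip links, fell by 2.06 in Tail-pNSC (SE 0.21), from 8.82 and 6.82 cpm to 2.2 and 1.63 cpm.

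**Figure D3:**
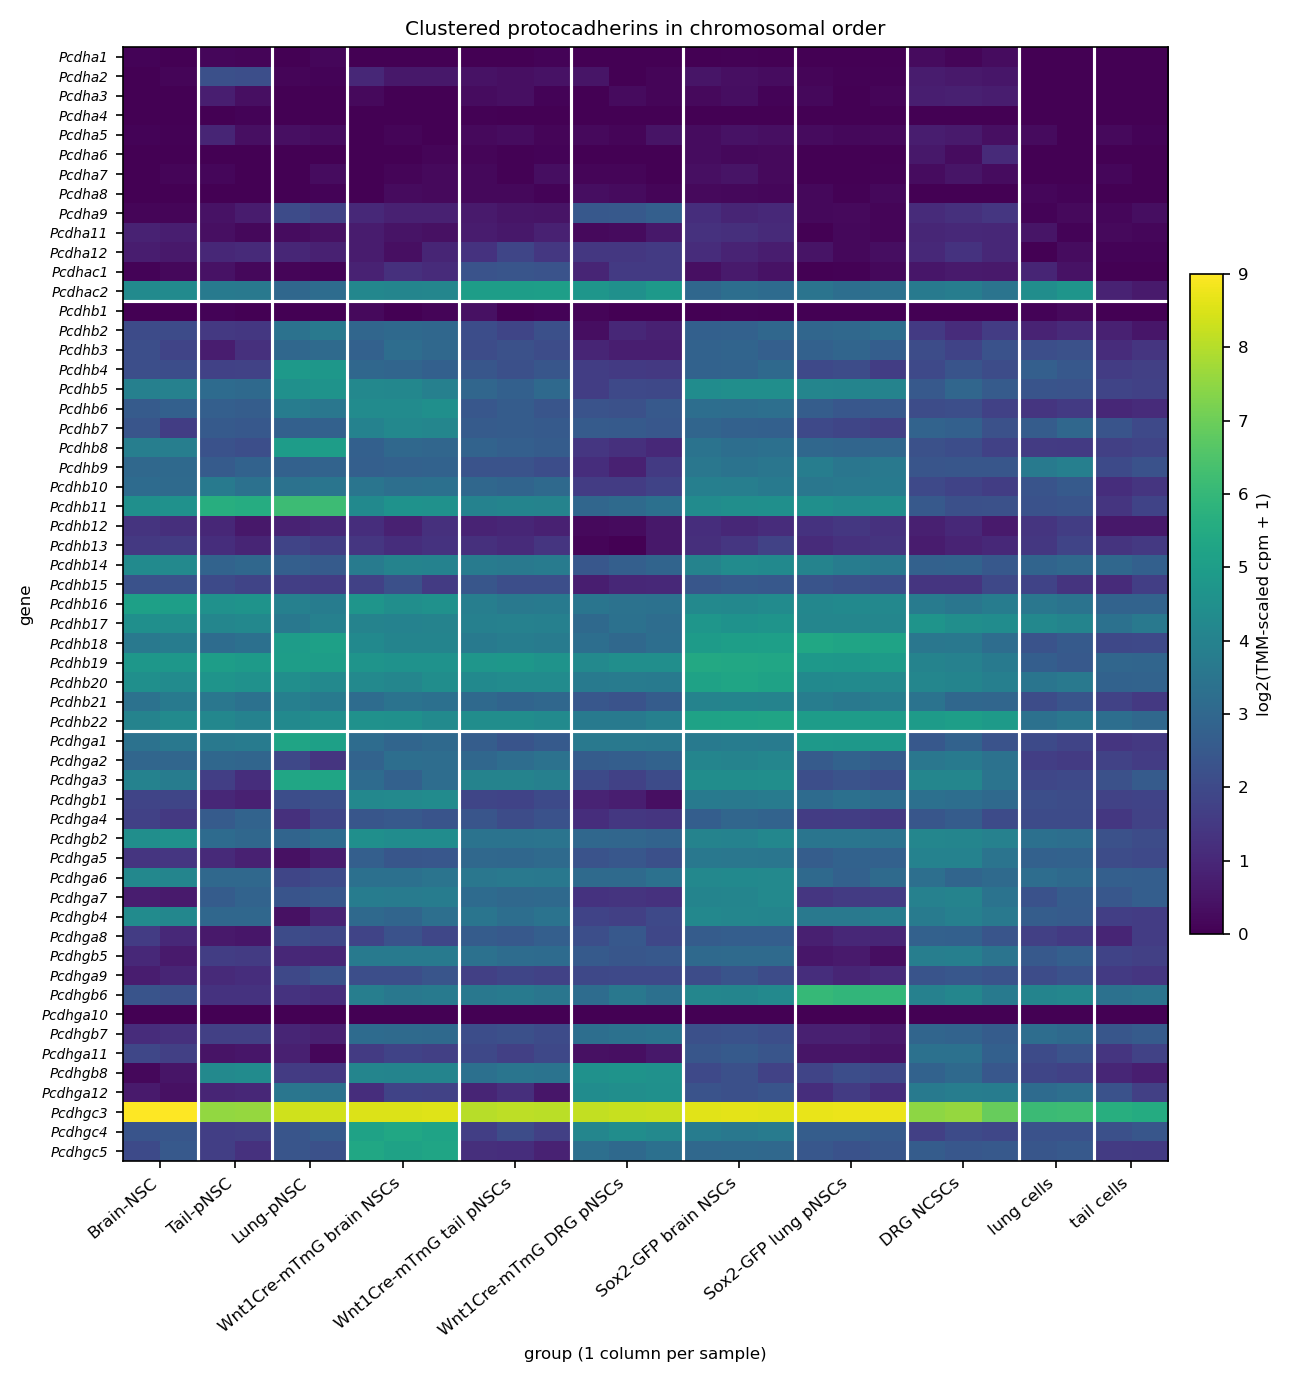
Levels of the 57 clustered protocadherins in chromosomal order (α, β and γ, separated by white lines) in each of the 28 samples, as log2 of TMM-scaled cpm plus 1. *Pcdhgc3* is bright in every column, the α rows other than *Pcdhac2* are dark, and single β and γ rows such as *Pcdhga3*, *Pcdhgb6* and *Pcdhgb8* differ between groups while the samples of a group are alike.

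The share called was higher among clustered genes than among the other members in 4 of the 5 comparisons of pNSCs with brain NSCs. The clustered genes were 22 of the 31 members called in Tail-pNSC, 24 of 27 in Lung-pNSC, 13 of 21 in Wnt1Cre-mTmG tail pNSCs, 29 of 31 in DRG pNSCs and 20 of 26 in Sox2-GFP lung pNSCs, with 47 of the 57 tested in each, beside 31, 26 or 28 other members in the 3 experiments. In this order, 46.8%, 51.1%, 27.7%, 61.7% and 42.6% of the clustered genes tested were called, against 29%, 9.68%, 30.8%, 7.69% and 21.4% of the other members and the 10.9%, 8.71%, 18.2%, 9.53% and 15.7% of all genes given above. The difference between these shares was not tested. Some of the other members passed the filter only through tissue cells or NCSCs. *Cdh1*, *Cdh3*, *Cdh5*, *Cdh8*, *Cdh15*, *Cdh16*, *Cdh18*, *Pcdh12* and *Pcdh20* held at most 3 counts in every Brain-NSC, Tail-pNSC and Lung-pNSC library. They could hardly be called there, which lowers the share of the other members. The α and γ genes share their last exons, and reads there can be left uncounted, so that a count mostly stands for the gene's own first exon, while β genes share little. For the named α and γ genes the values are uncertain to that extent.

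The α cluster was low in all groups. *Pcdhac2*, a C-type gene, led it in each of the 11 groups and made up 55.7% to 94.6% of its sum. It averaged 18.9 cpm in Brain-NSC, 11.8 cpm in Tail-pNSC and 7.49 cpm in Lung-pNSC, and fell by 1.36 in the last (SE 0.12). It was at 16.9, 15.9 and 16.4 cpm in Wnt1Cre-mTmG brain NSCs and 30.9, 31.6 and 31.8 cpm in tail pNSCs. Of the others, *Pcdha2* was at 3.53 and 3.46 cpm in Tail-pNSC and at or below 0.981 cpm in every other library, and Brain-NSC held 2 counts of it, a ratio of 71.0 (95% counting interval 19.3 to 593). *Pcdha9* was at 4.57, 4.71 and 5.55 cpm in Wnt1Cre-mTmG DRG pNSCs against 1.07, 0.772 and 0.759 cpm in brain NSCs, a rise of 2.5 ± 0.24.

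The summed level of the β genes was lower in DRG pNSCs, tail pNSCs and NCSCs than in Wnt1Cre-mTmG brain NSCs, without overlap. It was 262 ± 2.15 cpm (mean ± s.d., n = 3) in Wnt1Cre-mTmG brain NSCs and 110 ± 6.25 cpm (104 to 116 cpm) in DRG pNSCs. Of 21 β genes tested in DRG pNSCs, 16 fell (76.2%, against 6.41% of all genes), none rose in the same edgeR test (none also by DESeq2 or at an unadjusted p under 0.05), and all 21 log2 fold changes were negative, with a median of -1.73 against 0.01 over all genes tested. In Wnt1Cre-mTmG tail pNSCs the sum was 187 ± 2.21 cpm, and 5 of 21 fell (23.8%, against 9.05%), 0 were called higher (0 by DESeq2, 1 at an unadjusted p under 0.05 in edgeR) and 18 of 21 log2 fold changes were negative. In NCSCs the sum was 156 ± 11.3 cpm, and 9 of 21 fell (42.9%, against 14.8%), 0 were called higher (0 by DESeq2, 2 at an unadjusted p under 0.05 in edgeR) and 19 of 21 were negative. *Pcdhb2* was at 6.86, 7.43 and 7.08 cpm in brain NSCs and 0.254, 0.981 and 0.766 cpm in DRG pNSCs, a fall by 3.44 (SE 0.29). *Pcdhb3* was at 5.88, 8.20 and 7.17 cpm in brain NSCs and 0.93, 0.687 and 0.67 cpm in DRG pNSCs, a fall by 3.18 (SE 0.25). *Pcdhb19*, the leading β gene of both groups, was at 24.5, 23 and 22.8 cpm in brain NSCs and 17.8, 21.0 and 21.0 cpm in DRG pNSCs, and was not called.

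In the other 2 experiments the β sum was 249 ± 0.404 cpm in Brain-NSC, 230 ± 7.21 cpm in Tail-pNSC and 355 ± 3.76 cpm in Lung-pNSC (n = 2 each), and 335 ± 4.82 cpm in Sox2-GFP brain NSCs against 270 ± 5.88 cpm in lung pNSCs (n = 3 each). Of 21 β genes tested, Lung-pNSC had 7 higher (33.3%, against 4.56% of all genes) and 2 lower (9.52%, against 4.15%). *Pcdhb4* was at 3.46 and 3.34 cpm in Brain-NSC and 27.5 and 26.2 cpm in Lung-pNSC, a rise of 2.96 ± 0.14 (adjusted p = 7.32e-97). *Pcdhb11* rose by 1.65 ± 0.07 in Lung-pNSC (21.6 and 22.4 against 70.1 and 70.8 cpm) and by 1.09 ± 0.08 in Tail-pNSC (48.6 and 46.6 cpm), and led the β cluster in both. It fell by 1.44 in Wnt1Cre-mTmG DRG pNSCs (SE 0.12; 18.4, 22.8 and 22.5 against 6.93, 7.55 and 9 cpm). The leading β gene differed by group: *Pcdhb16* in Brain-NSC (33.0 cpm), *Pcdhb19* in Sox2-GFP brain NSCs (40.7 cpm), *Pcdhb18* in Sox2-GFP lung pNSCs (37.9 cpm), *Pcdhb22* in NCSCs (30.3 cpm) and *Pcdhb17* in lung and tail cells.

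In the γ cluster single genes differed widely. *Pcdhgc3* (chr18:37806364-37841873, plus strand) made up 81.5% of the γ sum in Brain-NSC, 68.5% in Tail-pNSC, 72.2% in Lung-pNSC and 40.4% in lung cells. It fell by 1.45 in Tail-pNSC (SE 0.03; 500.1 and 509.5 against 187 and 191 cpm) and the γ sum was there 276 ± 4.43 cpm against 619 ± 4.21 cpm. *Pcdhgb8*, annotated as a polymorphic pseudogene, was at 0.15 and 0.435 cpm in Brain-NSC and 17.8 and 19.4 cpm in Tail-pNSC, a rise of 5.92 ± 0.26 (adjusted p = 6.73e-114). In the Wnt1Cre-mTmG lines it was at 16.2, 15.6 and 15.8 cpm in brain NSCs and 8.99, 10.3 and 9.74 cpm in tail pNSCs. The low Brain-NSC level was thus not shared by the Wnt1Cre-mTmG brain line. The Sox2-GFP brain line lay between them. As cpm per kb, *Pcdhgb8* averaged 0.117 in Brain-NSC, 1.19 in Sox2-GFP brain NSCs and 6.36 in Wnt1Cre-mTmG brain NSCs.

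*Pcdhga12* was at 0.552 and 0.339 cpm in Brain-NSC and 10.7 and 9.58 cpm in Lung-pNSC, a rise of 4.47 ± 0.27 (adjusted p = 6.95e-61). In Wnt1Cre-mTmG DRG pNSCs it was at 19.8, 20.6 and 22 cpm against 1.25, 2.51 and 2.44 cpm in brain NSCs, a rise of 3.33 ± 0.19 (adjusted p = 2.43e-10). *Pcdhga12* was also called higher in Tail-pNSC, and lower in Sox2-GFP lung pNSCs and Wnt1Cre-mTmG tail pNSCs, each against its brain NSCs. *Pcdhgb4* was at 19.4 and 17 cpm in Brain-NSC and 0.332 and 0.841 cpm in Lung-pNSC, a fall by 5.01 (SE 0.22, adjusted p = 1.6e-112). *Pcdhga3* took both directions: it fell by 3.04 in Tail-pNSC (SE 0.18; 15 and 12.7 against 2.2 and 1.27 cpm) and rose by 1.45 ± 0.10 in Lung-pNSC (39.4 and 37.7 cpm). In Sox2-GFP lung pNSCs it fell by 2.46 (SE 0.10; 20.4, 20.1 and 20.7 against 3.47, 3.92 and 3.52 cpm).

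Of 21 γ genes tested, the Sox2-GFP lung line had 12 lower (57.1%, against 9.99% of all genes) and 2 higher (9.52%, against 5.76%). *Pcdhgb5* was at 7.47, 7.71 and 7.60 cpm in brain NSCs and 0.475, 0.554 and 0.264 cpm in lung pNSCs, a fall by 4.11 (SE 0.21). *Pcdhga7* was at 15.9, 16.2 and 17.7 cpm in brain NSCs and 1.71, 1.98 and 2.02 cpm in lung pNSCs, a fall by 3.09 (SE 0.12, adjusted p = 2.46e-141). *Pcdhgb6* rose by 1.90 ± 0.05 (16.5, 16.2 and 17.8 against 64.5, 60.3 and 60.5 cpm, adjusted p = 1.97e-284) and was the second γ gene of that line after *Pcdhgc3*. Against Brain-NSC, *Pcdhgb6* was called lower in both Tail-pNSC and Lung-pNSC. In the Wnt1Cre-mTmG tail line 2 of the 5 C-type genes fell, *Pcdhgc5* by 5.07 (SE 0.13; 40.3, 35.8 and 38.4 against 1.33, 1.26 and 0.812 cpm) and *Pcdhgc4* by 3.85 (SE 0.13; 35.1, 39.9 and 36.3 against 2.17, 3.31 and 2.28 cpm). *Pcdhac1* rose there by 1.83 ± 0.23, and *Pcdhgc3* (log2 fold change -0.51 ± 0.10) and *Pcdhac2* (0.92 ± 0.09) were not called. In DRG pNSCs *Pcdhgb1* fell by 4.88 (SE 0.20), from 17.4, 18 and 19.5 cpm to 0.846, 0.687 and 0.287 cpm.

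Brain lines also differed among themselves. Of 50 clustered members tested over all samples, 19 had group means at least 2-fold apart between Brain-NSC and Wnt1Cre-mTmG brain NSCs (8.23% of all genes did; 0.5 cpm added, no test), 17 between Brain-NSC and Sox2-GFP brain NSCs (13.5% of all genes) and 10 between the Sox2-GFP and Wnt1Cre-mTmG brain NSCs (10.8%). The counts between pNSC lines and their own brain controls were 19 for Tail-pNSC (6.84% of all genes), 24 for Lung-pNSC (5.57%), 11 for Wnt1Cre-mTmG tail pNSCs (12.2%), 28 for DRG pNSCs (5.96%) and 18 for Sox2-GFP lung pNSCs (9.9%). The brain lines also differ by experiment, mouse line and *Xist*, which cannot be told apart. *Xist* averaged 1863 cpm in Brain-NSC, 0.0924 cpm in Wnt1Cre-mTmG brain NSCs and 0.276 cpm in Sox2-GFP brain NSCs. Of the 31 members outside the clusters, 5 to 10 were at least 2-fold apart between brain lines and 2 to 8 between pNSCs and brain NSCs.

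Lines from the same organ were then compared by the difference of their changes against brain NSCs. For tail, 34 of 81 members were called (42%, against 16% of all genes), with 17 higher in the Wnt1Cre-mTmG line (21%, against 8.96%) and 17 lower (21%, against 7.05%). *Pcdhgb8* differed by -6.66 ± 0.28 (adjusted p = 1.76e-21), *Pcdhga3* by 4.03 ± 0.26 (adjusted p = 9.02e-16) and *Cdh11* by 2.93 ± 0.11 (adjusted p = 1.2e-22). For lung, 36 of 81 were called (44.4%, against 14.1% of all genes), with 10 higher in the Sox2-GFP line (12.3%, against 5.89%) and 26 lower (32.1%, against 8.24%). *Pcdhga7* differed by -5.84 ± 0.32, *Pcdhga12* by -5.80 ± 0.36 and *Pcdhgb4* by 4.55 ± 0.24. Among 74 members tested in both lung comparisons, *Cdh23* (below 1 cpm in every library of these groups) and *Pcdhga1* were called higher in both and *Pcdhga2*, *Pcdhga6* and *Pcdhga11* lower in both, while 7 were called in opposite directions. The shared calls were 2 of 16 (12.5%) and of 3 (66.7%) called higher, and 3 of 11 (27.3%) and of 22 (13.6%) called lower. Over all 16097 genes tested in both they were 166 of 722 (23%) and of 926 (17.9%) higher and 281 of 664 (42.3%) and of 1547 (18.2%) lower, with 175 called in opposite directions. For tail, 6 of 72 were called lower in both: *Cdh19*, *Pcdh11x*, *Pcdhb3*, *Pcdhgb1*, *Pcdhgb2* and *Pcdhgc5*. These were 28.6% of the 21 members called lower in the first experiment and 40% of the 15 in the Wnt1Cre-mTmG experiment, and over all genes 383 were shared of 1012 (37.8%) and of 1261 (30.4%). *Cdh11*, *Cdh23* and *Pcdhga12* were called in opposite directions in the tail lines, as were 185 of the 14237 genes.

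**Figure D4:**
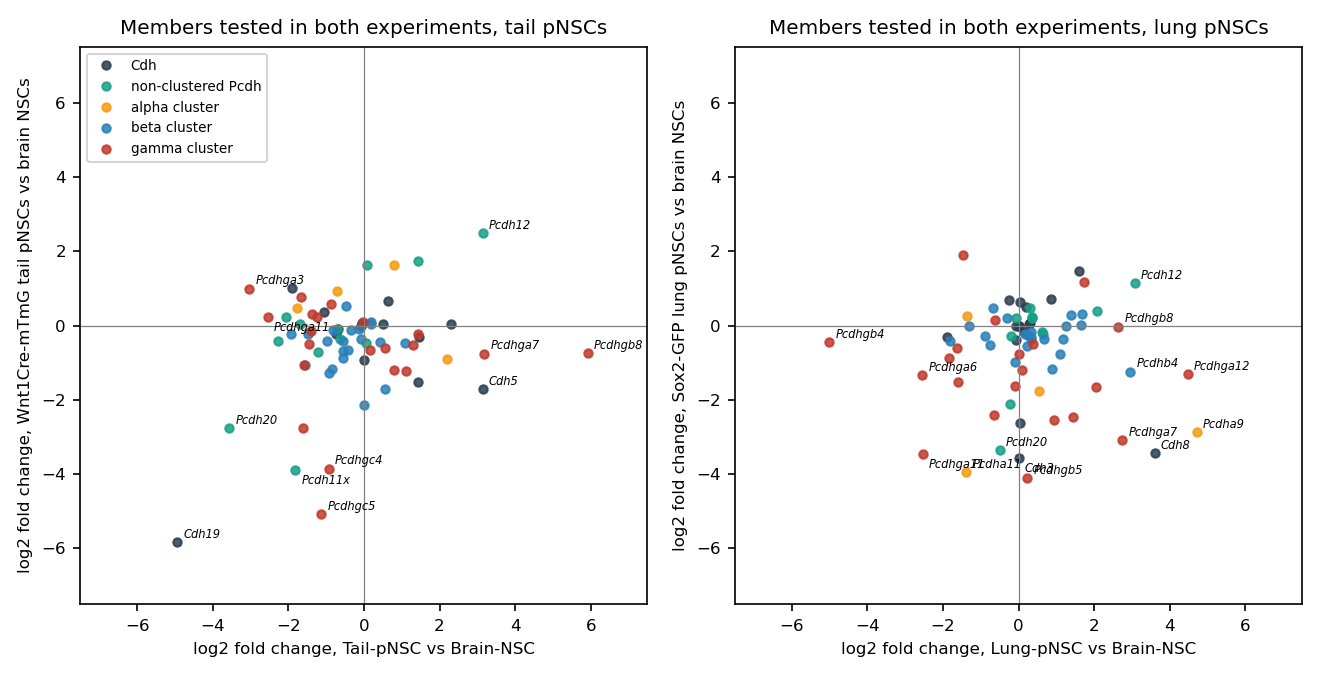
Log2 fold changes of the members against brain NSCs in the 2 experiments for tail (left) and lung (right); each point is a member, coloured by family. *Cdh19* (-4.95 and -5.83) lies in the same direction in both tail lines, while *Pcdhgb8*, *Pcdhga3* (tail) and *Pcdhga7*, *Pcdhga12* (lung) lie far from the diagonal; *Cdh3*, *Cdh5*, *Cdh8*, *Pcdh12*, *Pcdh20* and the α genes other than *Pcdhac2* rest on low counts in at least 1 of the groups.

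NCSCs from the DRG carried another cadherin profile. Against Wnt1Cre-mTmG brain NSCs, 37 of 73 members were called (50.7%, against 36.9% of all genes), with 14 higher (19.2% against 22.1%) and 23 lower (31.5% against 14.8%). *Cdh4* was at 6.25, 6.1 and 5.06 cpm in NCSCs against 265, 266 and 272 cpm in brain NSCs and fell by 5.52 (SE 0.06, adjusted p = 1.46e-21). *Cdh20* was at 32.1, 30.3 and 24.7 cpm against 188, 190 and 192 cpm and fell by 2.70 (SE 0.06, adjusted p = 4.1e-17). *Cdh22* fell by 6.05 (SE 0.08), *Pcdh11x* by 5.22 (SE 0.09) and *Cdh13* by 3.52 (SE 0.08). *Xist* averaged 0.0924 cpm in these brain NSCs and 313 cpm in NCSCs, and its part in the fall of X-linked *Pcdh11x* was not tested. *Cdh2*, at 213, 217 and 170 cpm, was not called.

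*Pcdh20* (chr14:88464743-88471396, minus strand), a δ protocadherin, had the largest rise of the members tested in NCSCs against brain NSCs. It was at 499, 489 and 460 cpm in NCSCs, at 1.25, 1.64 and 1.35 cpm in Wnt1Cre-mTmG brain NSCs and at or below 4.35 cpm in every NSC and pNSC library, and rose by 8.41 ± 0.09 against brain NSCs (adjusted p = 2.68e-21). *Cdh19* rose by 5.86 ± 0.09 (adjusted p = 2.06e-19) and *Cdh6* by 1.85 ± 0.08. *Pcdh1* was at 469, 496 and 465 cpm in NCSCs against 46.6, 45.5 and 45.6 cpm in brain NSCs and rose by 3.37 ± 0.04. *Pcdh8* (paraxial protocadherin) rose by 3.80 ± 0.19, to 14.1, 13.7 and 11.2 cpm. *Cdh1* (3.83, 3.14 and 4.29 cpm) and *Cdh5* (24.4, 25.1 and 19.2 cpm) were also higher in NCSCs than in brain NSCs, by ratios of 62.2 (95% counting interval 17.0 to 517) and 194 (75.5 to 712). NCSC libraries held leukocyte markers at a sum of 607 to 639 cpm (5 of 5 at 1 cpm), fibroblast markers at 2955 to 3594 cpm, neuron markers at 342 to 367 cpm and endothelial markers at 18.7 to 23.7 cpm, and the part of such cells in these results was not tested.

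The pNSC lines from Wnt1Cre-mTmG mice were also set against NCSCs. Tail pNSCs gave 32 of 73 called (43.8%, against 37.9% of all genes), with 15 higher (20.5% against 15.3%) and 17 lower (23.3% against 22.6%). DRG pNSCs gave 45 of 73 (61.6%, against 38.3%), with 14 higher (19.2% against 15.1%) and 31 lower (42.5% against 23.3%). Both comparisons and that with brain NSCs share groups, so their values are given side by side. *Cdh4* was higher by 5.5 ± 0.06 in tail and 5.24 ± 0.06 in DRG pNSCs, and *Cdh22* by 6.41 ± 0.07 and 5.30 ± 0.08. *Cdh19* had a log2 fold change of -11.69 ± 0.14 in tail pNSCs and of -7.56 ± 0.11 in DRG pNSCs. For *Pcdh20* the values were -11.17 ± 0.11 and -8.31 ± 0.09, and for *Pcdh1* -3.83 ± 0.04 and -2.82 ± 0.04. Without NCSC replicate 3, 40 members were called against brain NSCs, and against NCSCs 35 in the tail line and 46 in the DRG line.

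Partners and regulators of the family were read from lists of related genes. Of 18 catenins and junction adaptors, 1 was higher and 2 were lower in Lung-pNSC against Brain-NSC (4.56% and 4.15% of all genes were). This was the largest number called in any pNSC to brain comparison. *Ctnna2* (neural α-catenin) rose by 1.56 ± 0.11 in Tail-pNSC and fell by 2.22 in Sox2-GFP lung pNSCs (SE 0.06), and *Jup* (plakoglobin) fell by 1.61 in Lung-pNSC (SE 0.06). In NCSCs 6 of 17 were higher and 3 lower than in brain NSCs (22.1% and 14.8% of all genes were), among them *Pkp2* (a desmosomal plaque protein), higher by 3.86 ± 0.12, and *Ctnnd2* (neural δ-catenin), with a log2 fold change of -4.68 ± 0.07. Of 27 other genes of the cadherin superfamily, 6 of 16 tested rose and 5 fell in Wnt1Cre-mTmG tail pNSCs (9.16% and 9.05% of all genes did), with *Celsr1* (planar polarity) higher by 4.00 ± 0.07, and 8 of 19 fell in Sox2-GFP lung pNSCs (9.99% of all genes did). *Ret*, a receptor with cadherin repeats, rose by 7.78 ± 0.13 in NCSCs.

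The 19 regulators of promoter choice in the clusters (CTCF, cohesin, its loaders and the DNA and histone methyltransferases) were tested in all comparisons. In Tail-pNSC, Lung-pNSC and the tail and DRG lines of Wnt1Cre-mTmG against brain NSCs, 0 of 19 were called by edgeR or DESeq2. Of all genes, 10.9%, 8.71%, 18.2% and 9.53% were called by edgeR, in this order. At an unadjusted p under 0.05 edgeR gave 16 higher and 0 lower, 2 and 8, 7 and 5, and 14 and 1. In Sox2-GFP lung pNSCs *Dnmt1*, the maintenance DNA methyltransferase, rose by 1.27 ± 0.02. Of 16 regulators of the epithelial-mesenchymal transition, 3 were higher and 0 lower in Lung-pNSC against Brain-NSC (4.56% and 4.15% of all genes were). DESeq2 gave 2 higher and 0 lower there, and edgeR at an unadjusted p under 0.05 gave 5 higher and 0 lower. *Twist1* was higher by 2.86 ± 0.29 in Lung-pNSC. In Sox2-GFP lung pNSCs against brain NSCs, 5 of 15 were higher and 0 lower by edgeR and by DESeq2 (5.76% and 9.99% of all genes were by edgeR). At an unadjusted p under 0.05 edgeR gave 8 higher and 1 lower. Against tail cells, 12 of the 16 were lower in Tail-pNSC and 2 higher (32.6% and 14.1% of all genes were). *Zeb1* rose there by 3.46 ± 0.04, while *Esrp1*, a splicing factor of epithelia, was at 186 ± 3.75 cpm (n = 2) in tail cells and had no count in Tail-pNSC. Lung-pNSC against lung cells gave 10 lower and 3 higher of 16 (34.9% and 20.2% of all genes). The tissue cells also held the epithelial markers given above, whose part in these counts was not tested. Of 9 proteases that act on cadherins, *Mmp14* rose by 3.38 ± 0.11 in Tail-pNSC and 3.63 ± 0.10 in Lung-pNSC, and its log2 fold change was -4.38 ± 0.10 in Wnt1Cre-mTmG DRG pNSCs and -1.83 ± 0.06 in Sox2-GFP lung pNSCs.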

How the data were processed

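RNA was poly(A)-selected and sequenced single-end on a NextSeq500. The authors deposited raw counts per gene for all samples in one table; the labels and methods name HISAT2, Cufflinks and HTSeq with the GRCm38 build, and the strand setting, the counting mode and the annotation release are not given in the sources used here. Counts of reads in exons shared by several α or γ genes can be left out by such counting, and no molecular identifiers mark copies of a molecule.

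The members and the gene lists were chosen with earlier results of these data known. Counts were tested with edgeR 4.0.16 in R 4.3.3 (filterByExpr with a minimum count of 10 and total of 15, TMM, quasi-likelihood F test, Benjamini-Hochberg over all genes tested), in 1 fit for each of the 3 experiments and in 1 fit of all 28 samples for the difference of effects between lines from the same organ. These held 16948, 14448, 16234 and 17393 genes (first, Wnt1Cre-mTmG, Sox2-GFP, all samples). A gene was called at a fold change of 2 or more in either direction with an adjusted p below 0.05. Errors of fold changes are SE; those of levels are s.d. The smallest p-values, below what the software can hold, are left out and only the SE is given.

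Levels are cpm with TMM factors over all 28 samples. Ratios to a group with at most 3 counts in each library carry an exact binomial counting interval at 95%. A group without counts is set to the mean of the floors of its libraries, each at 3 counts. Named were, per comparison, up to 4 called members with the largest rise and 4 with the largest fall without overlap of samples and with at least 5 cpm, members outside the clusters with a group mean of at least 10 cpm, and the leading cluster members; others were chosen after their values were seen. Of each list of related genes at most 2 per direction are named. Members' gene positions are those of GENCODE M21 (GRCm38), and promoters are from RefSeq (GRCm38.p6). Alternatives were DESeq2 1.42.0, upper-quartile scaling, no filter, fits of only the groups compared, a replicate block and leaving out each replicate. The test script was tested on simulated data. Figures were drawn with matplotlib 3.10.9.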

Additional observations from a re-analysis of the deposited data

Results flagged for a closer look

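The changes against brain NSCs differed between the 2 tail lines for 11 members, by a test of the difference itself (interaction term in edgeR, all samples). Values are in log2 units, Wnt1Cre-mTmG minus Tail-pNSC. The 11 were picked among the largest rises and falls of the same 2 comparisons, so that the test uses the values that picked them. Over all members, 34 of 81 were called (42%, against 16% of all genes). Outside the clusters, the difference was 2.93 for *Cdh11*, 1.85 for *Pcdh10*, -2.07 for *Pcdh11x*, 2.30 for *Pcdh15* and 1.54 for *Pcdh9*. In the γ cluster it was 4.03 for *Pcdhga3*, -1.65 for *Pcdhga4*, -3.94 for *Pcdhga7*, -6.66 for *Pcdhgb8*, -2.92 for *Pcdhgc4* and -3.94 for *Pcdhgc5*.

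For lung, the same choice and test gave 12 members (Sox2-GFP minus Lung-pNSC). Over all members, 36 of 81 were called (44.4%, against 14.1% of all genes). The difference was 1.56 for *Cdh22* and -1.69 for *Pcdh17*. In the β cluster it was 1.38 for *Pcdhb14* and -4.20 for *Pcdhb4*. In the γ cluster it was -5.80 for *Pcdhga12*, -3.92 for *Pcdhga3*, 1.22 for *Pcdhga6*, -5.84 for *Pcdhga7*, -3.49 for *Pcdhga8*, 4.55 for *Pcdhgb4*, -4.35 for *Pcdhgb5* and 3.37 for *Pcdhgb6*. Mouse line, brain control, the *Xist* level of the lines and, for lung, age changed together between the experiments and cannot be told apart. With 2 or 3 samples a group, the gap test for a single outlying sample was not run on the members. NCSC replicate 3, whose counts differed from those of its group over all genes, is described in the report.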

How the results depend on the processing

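The number of members called stayed within 1.5 times the main count in all 13 comparisons under every alternative. Over DESeq2, upper-quartile scaling, no filter, fits of only the groups compared and the replicate block, it ranged from 29 to 33 for Tail-pNSC and 26 to 28 for Lung-pNSC against Brain-NSC, 19 to 22 and 31 to 33 for Wnt1Cre-mTmG tail and DRG pNSCs and 22 to 29 for Sox2-GFP lung pNSCs against their brain NSCs, 36 to 45 for NCSCs against brain NSCs, 32 to 44 and 43 to 55 for tail and DRG pNSCs against NCSCs, and 33 to 34 and 33 to 36 for the differences of effects in tail and lung. Leaving out each replicate in turn gave 28 to 33, 25 to 29, 19 to 22, 30 to 32, 23 to 26, 34 to 40, 31 to 35, 44 to 48, 33 to 34 and 31 to 36, in the same order. The deviations of same-numbered samples had correlations of -0.010 to 0.095 over 28 pairs. Replicates of most groups differed little beyond counting error, so these values cannot decide whether the numbers pair the samples. Where both groups held 2 samples, the 2 pairs give the same value. With the replicate block 30, 27, 21, 31, 25, 36, 32, 45, 34 and 36 members were called, again in that order. No fold change of a named member reversed. Beyond leaving out replicates, the calls lost were *Cdh11* in Wnt1Cre-mTmG tail pNSCs (0.999 under upper-quartile scaling), *Pcdh7* in NCSCs against brain NSCs (0.963 under upper-quartile scaling, 0.998 with the block) and *Cdh3* in Sox2-GFP lung pNSCs against brain NSCs (adjusted p = 0.0675 by DESeq2, 0.0686 without the filter and 0.0725 with the block); *Cdh3* rests on counts near 0. Groups of 2 or 3 samples and members near 3 counts limit what could be seen, and α genes other than *Pcdhac2* were mostly near that floor.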

Other observations

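Some members with low levels were seen in few groups. *Cdh15* (M-cadherin of myogenic cells) was at 4.69 and 3.00 cpm in tail cells and at or below 0.280 cpm in every other library, and tail cells were at least 23.5-fold above Tail-pNSC, which held no count of it. The 5 skeletal muscle markers summed to 267 to 271 cpm in tail cells. *Cdh8*, a type II cadherin of the nervous system, was at 2.01, 2.14 and 2.82 cpm in NCSCs and 1.69, 1.61 and 1.45 cpm in Sox2-GFP brain NSCs and 1.45 and 1.21 cpm in tail cells, while the Sox2-GFP lung pNSCs held 0.0951, 0.138 and 0.176 cpm.

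*Pcdh19*, an X-linked δ protocadherin, was at 43.9, 42.7 and 46.6 cpm in Wnt1Cre-mTmG brain NSCs and 12.4, 13.7 and 12.2 cpm in NCSCs, and fell by 1.80 on the log2 scale (SE 0.08, edgeR, adjusted p = 2.61e-13). *Xist* averaged 0.0924 cpm in these brain NSCs and 313 cpm in NCSCs, and its part in the *Pcdh19* result was not tested. *Pcdh7* was at 199, 208 and 170 cpm in NCSCs against 72.3, 69.7 and 68.4 cpm in Wnt1Cre-mTmG DRG pNSCs, and was lower in the latter with a log2 fold change of -1.45 ± 0.06. It overlaps a gene on the opposite strand over 21.1% of its exon length.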
